A study of Mus musculus with 8 samples.

Results

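The insulin-like growth factor (IGF) genes of mouse peritoneal mesothelial cells (MCs) are described here: the ligand Igf1, the receptors Igf1r and Igf2r, and the binding proteins Igfbp2, Igfbp3, Igfbp4, Igfbp5, Igfbp6 and Igfbp7. These 9 genes were taken by name from the 13687 genes of the deposited RNAseq table, and all 9 passed the filter on low values (normalised CPM of at least 1 in at least 2 libraries). The cells were primary MCs freed from the parietal peritoneum of CAV1-deficient mice (B6.Cg-CAV1tm1mls/J, called CAV1-/- here and Cav-1- in the labels) and of wild-type (WT) littermates. The deletion is carried by every cell of the animal. Each genotype had 2 animals, and each animal gave 1 culture kept static and 1 culture exposed to mechanical stretch for 24 h after confluence, so that there were 8 libraries in 4 groups of 2. All cells grew in medium with serum, and a growth supplement that contains insulin was washed out the day before the experiment. Neither the age of the animals used for these cultures nor the size and rate of the stretch applied to these mouse cells is given in the sources used here. The paper gives the size and rate of stretch for its human cells. The study asked how stretch and the loss of CAV1, the membrane protein that builds caveolae, act on the mesothelial to mesenchymal transition (MMT) of MCs.

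IGF1 is a secreted growth factor that signals for growth and survival through IGF1R, a receptor tyrosine kinase. IGF2R, also known as the cation-independent mannose-6-phosphate receptor, has no kinase and carries IGF2 to lysosomes. The IGF binding proteins hold IGFs outside the cell, prolong their life and limit their access to the receptor, until proteases such as PAPPA cut them. MCs are the flat epithelial layer of the peritoneum, and they lose keratins and other epithelial genes during MMT.

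The results turn on 2 binding protein genes, Igfbp2 and Igfbp6, and the 250 bases before their RefSeq transcription start (build GRCm38.p6) are shown to give the letters next to the transcripts measured. The same stretch of Igfbp5 is shown because Igfbp5 lies tail to tail with Igfbp2 on chromosome 1, 5457 bases away, and did not share its pattern. Capitals mark matches to 6 motifs searched on both strands, which are the GC box (GGGCGG), the E-box of letters CACGTG, the TATA box (TATAAA), the TEAD motif (GGAATG), the AP-1 motif of letters TGANTCA and the SMAD motif (CAGACA).
Igfbp2, chr1:72824230-72824479, plus strand: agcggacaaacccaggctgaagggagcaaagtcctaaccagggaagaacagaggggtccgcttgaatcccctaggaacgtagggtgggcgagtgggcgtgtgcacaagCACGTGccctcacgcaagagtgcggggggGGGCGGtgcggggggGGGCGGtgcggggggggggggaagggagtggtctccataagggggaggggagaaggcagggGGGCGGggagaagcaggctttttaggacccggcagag
Igfbp5, chr1:72874866-72875115, minus strand: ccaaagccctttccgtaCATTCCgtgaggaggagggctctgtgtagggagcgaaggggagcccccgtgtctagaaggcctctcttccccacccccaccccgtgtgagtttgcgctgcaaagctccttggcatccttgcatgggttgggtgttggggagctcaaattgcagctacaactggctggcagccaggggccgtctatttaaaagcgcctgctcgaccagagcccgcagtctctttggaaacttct
Igfbp6, chr15:102143936-102144185, plus strand: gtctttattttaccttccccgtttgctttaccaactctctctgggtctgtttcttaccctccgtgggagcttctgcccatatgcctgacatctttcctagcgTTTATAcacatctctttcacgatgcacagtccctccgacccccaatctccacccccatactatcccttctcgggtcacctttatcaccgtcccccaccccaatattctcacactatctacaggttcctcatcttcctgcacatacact
The Igfbp2 promoter, with a GC content of 67.2%, held 3 GC boxes and 1 E-box. The Igfbp6 promoter, with a GC content of 49.6%, held neither of those motifs. It held 1 match to the TATA box letters, read on its opposite strand as TTTATA. The pair whose transcripts were lower in CAV1-/- MCs therefore shared none of the letters searched. The Igfbp5 promoter held 1 TEAD motif, read on its opposite strand as CATTCC. All 9 genes matched a RefSeq promoter by symbol. None of the 9 had a SMAD motif in this window, and only Igfbp5 had a TEAD motif. Among all 32851 RefSeq promoters of the same length, 32.7% held the GC box, 6.02% the E-box, 12.4% the TATA box, 12.6% the TEAD motif, 6.75% the AP-1 motif and 17.1% the SMAD motif. Igfbp2 has a further RefSeq start downstream, whose promoter held 1 AP-1 motif and no GC box. A match is a run of letters and not a measured binding site.

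Depth ran from 9777738 to 21203938 reads per library, and every stretched library was deeper than every static one (lowest stretched 15861571, highest static 14237503). The lowest read count of any of the 9 genes was 141, for Igfbp2 in the stretched culture of CAV1-/- animal 1, so none was near the floor of 3 reads (0.146 to 0.308 normalised CPM). Cav1, the deleted gene, measured 12.8 to 34.5 normalised CPM in CAV1-/- cultures and 248 to 764 in WT cultures. Both cultures of CAV1-/- animal 1 stood apart: all 14 measured macrophage and leukocyte markers were higher there than in the other 6 cultures, with a summed level of 4815 to 4832 normalised CPM against 317 to 348 in CAV1-/- animal 2 and 78.2 to 468 in WT. Ptprc, the pan-leukocyte gene CD45, was at 37.6 and 30.8 there and at most 4.27 elsewhere. Of 10 measured fibroblast markers, 5 were lower in that animal than in the other 6 cultures, and the sum, carried mostly by Dcn and Pdgfra, was 158 to 317 normalised CPM there, 1503 to 1781 in CAV1-/- animal 2 and 452 to 1934 in WT. Mesothelial markers moved with the genotype, since 10 of 12 measured were lower in all 4 CAV1-/- cultures than in any WT culture and their sum was 854 to 1116 against 2963 to 3903 normalised CPM. Krt7, a mesothelial keratin, was at 10.2 to 31.9 normalised CPM in CAV1-/- and 139.7 to 525 in WT cultures. In such bulk samples fewer cells of a type and less RNA per cell cannot be told apart. No gene was left out for these differences, and values without CAV1-/- animal 1 stand beside only some of the results for the 9 genes.

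Compared per kilobase of exon, the binding proteins were far more abundant than the ligand. In static WT MCs the order, as mean normalised CPM per kb ± SD (n = 2), was Igfbp7 at 393 ± 57.3, Igfbp6 at 249 ± 6.74, Igfbp3 at 199 ± 67.7, Igfbp4 at 139 ± 16.9, Igfbp2 at 60.7 ± 5.28, Igf2r at 29.5 ± 7.78, Igfbp5 at 4.35 ± 2.81, Igf1r at 4.31 ± 0.0248 and Igf1 at 1.3 ± 0.217. Igfbp6 and Igfbp3 change places when the longest transcript is used as the length in place of all exons, as do Igfbp5 and Igf1r. Igfbp7, a relative of the family that binds IGFs only weakly, was first in all 4 groups. It made up 34.2% to 40.9% of the level per kb summed over the 6 binding protein genes in static WT cultures, 43.0% to 59.4% in stretched WT cultures, 36.1% and 71.1% in static and 53.2% and 85.3% in stretched CAV1-/- cultures. The highest of these shares belong to the cultures of CAV1-/- animal 1.

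**Figure D1:**
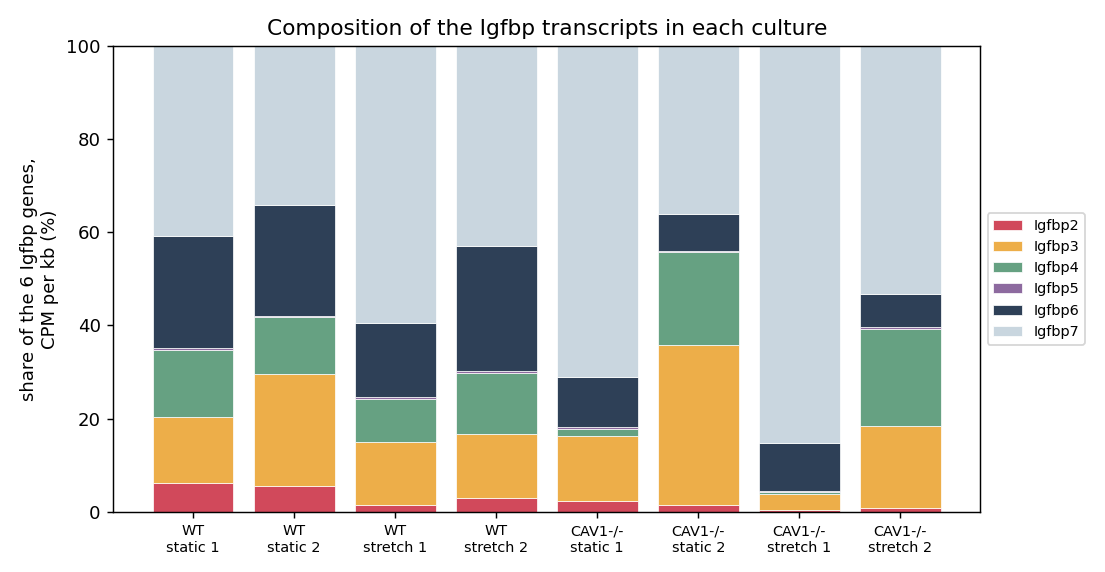
Share of each binding protein gene in the level summed over the 6 Igfbp genes (normalised CPM per kb of exon, in percent) in each of the 8 cultures, named by genotype, condition and animal. Igfbp7 takes 85.3% in the stretched culture of CAV1-/- animal 1, and the share of Igfbp2 runs from 6.07% in static WT animal 1 to 0.401% in that culture.

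Igfbp2, which binds IGF2 and IGF1 and also carries an integrin-binding motif, was lower on stretch in every animal and lower in CAV1-/- than in WT MCs in both conditions. The gene (ENSMUSG00000039323) lies on the plus strand of chromosome 1 from 72824503 to 72852474 (GRCm38). Without stretch, WT MCs held 118.9 and 105.1 normalised CPM and CAV1-/- MCs 34.4 and 28.7. After stretch, WT MCs held 28.5 and 41.2 and CAV1-/- MCs 6.84 and 11.5. The groups therefore formed 3 levels: static WT was highest, stretched WT and static CAV1-/- overlapped in the middle, and stretched CAV1-/- was lowest without overlap. From static to stretched the level was divided by 4.18 and 2.55 in WT animals 1 and 2, and by 5.04 and 2.48 in CAV1-/- animals 1 and 2. In limma's fit over all genes the difference (stretched minus static, on the log2(CPM + 1) scale) was -1.68 ± 0.28 (SE) in WT, -1.71 ± 0.28 in CAV1-/- MCs and -1.69 ± 0.20 over both genotypes, with a 95% interval of -2.18 to -1.21 for the last. Only 3 of the 13665 genes tested had a lower estimate over both genotypes. The unadjusted p was 0.00013 over both genotypes and the p adjusted over all genes was 0.98, so the gene did not pass the threshold of 0.05, and neither did any other gene. With the animal as a block, which the labels justify since both cultures came from the same animal, its adjusted p was 0.029 and it passed, as did 1.47% of all genes. With the animal as a random effect instead, its adjusted p was 0.054 and it did not pass.

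The stretch difference of Igfbp2 was of like size in the 2 genotypes. The interaction, the CAV1-/- minus the WT difference, was -0.03 with a 95% interval of -0.99 to 0.93 on the log2 scale (limma, adjusted p = 1.00), and its sign turned with other settings. The interval still holds a stretch difference nearly a doubling larger or smaller in CAV1-/- MCs. Between genotypes Igfbp2 was lower in CAV1-/- MCs by -1.80 ± 0.28 (SE) when static and -1.83 ± 0.28 when stretched, with p adjusted over all genes of 0.10 and 0.15 in limma. Without CAV1-/- animal 1 the differences were -1.93 and -1.49. The summed mesothelial markers were lower in the same CAV1-/- cultures, and their part in the genotype difference was not tested. On stretch that sum went from 3903 to 2963 and from 3744 to 3573 normalised CPM in the WT animals, from 1116 to 1045 in CAV1-/- animal 1 and from 1020 to 854 in CAV1-/- animal 2. Some single markers were lower by more: Gpm6a was divided by 2.68 in WT animal 1 and by 4.59 in CAV1-/- animal 1, and Lrrn4 by 3.05 in CAV1-/- animal 2. Others were higher on stretch in both WT animals. Pdpn went from 580 to 779 and from 481 to 596 normalised CPM in WT, and from 451 to 458 and from 337 to 407 in CAV1-/- animals. Krt18 went from 173 to 231 and from 181 to 206 in the WT animals. In the CAV1-/- animals it went from 54.6 to 93.3 and from 55.3 to 50.9. The part of mesothelial markers in the stretch difference was not tested either.

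**Figure D2:**
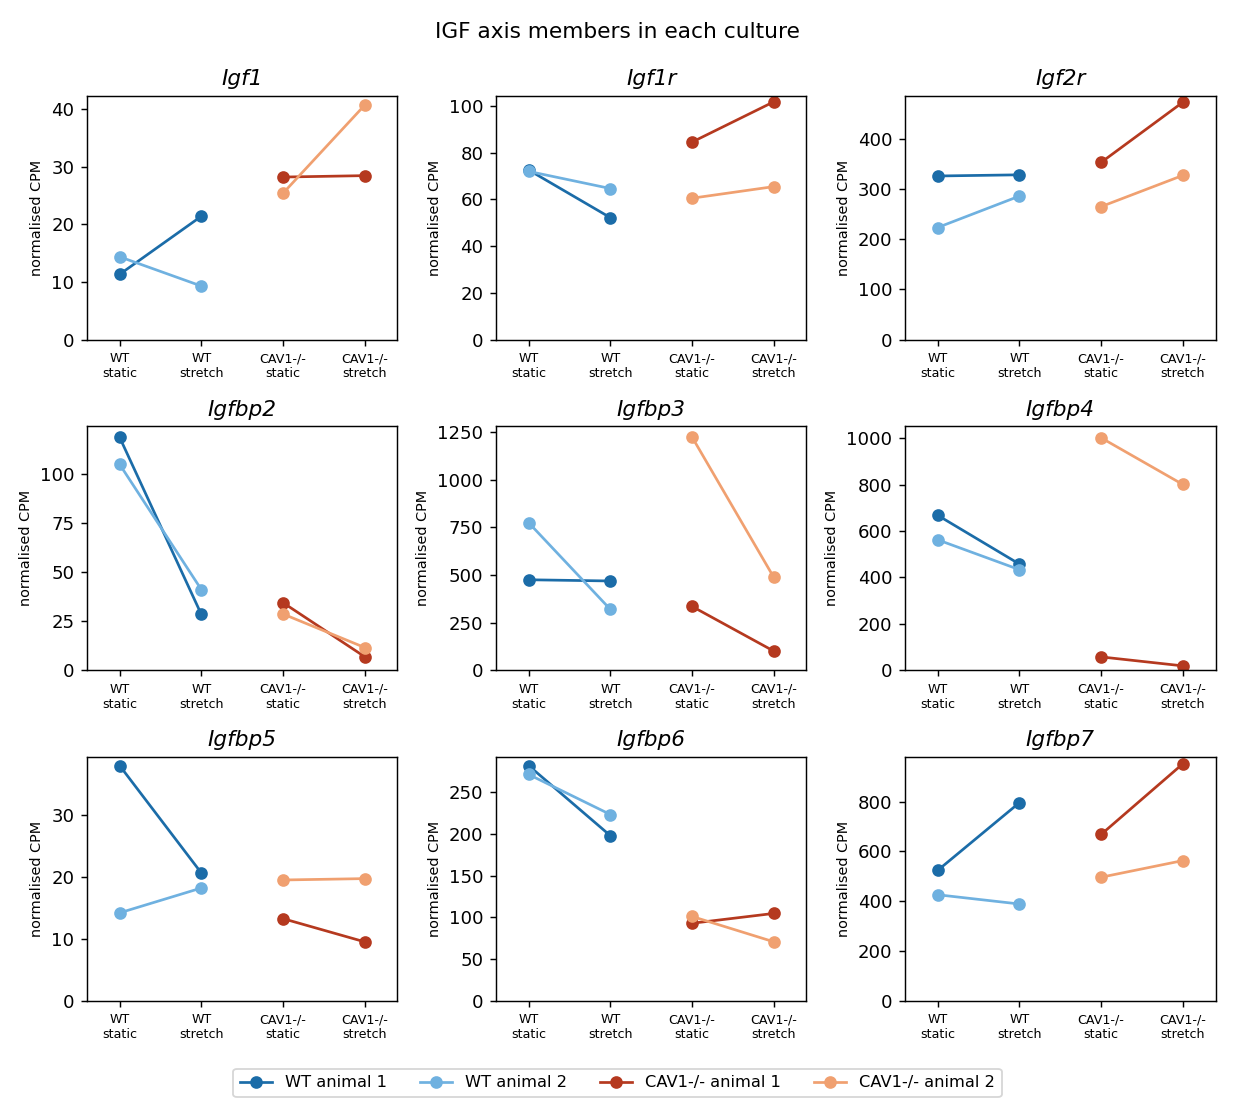
Normalised CPM of the 9 genes in each culture, with a line joining the static and the stretched culture of an animal (WT in blue, CAV1-/- in red). Igfbp2 goes down along all 4 lines, Igfbp6 lies between 70.5 and 104.6 in all CAV1-/- cultures and at 197.9 or above in all WT cultures, and Igfbp4 is 57.2 and 18.5 in CAV1-/- animal 1.

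Igfbp6, which prefers IGF2 over IGF1 as its ligand, differed by genotype. The gene (ENSMUSG00000023046, plus strand of chromosome 15, 102144362 to 102149511) measured 282.0 and 271.4 normalised CPM in static WT cultures and 92.8 and 101.0 in static CAV1-/- cultures. In stretched cultures it measured 197.9 and 223.3 in WT and 104.6 and 70.5 in CAV1-/- MCs. All 4 CAV1-/- cultures were below all 4 WT cultures, a pattern shown by 5.88% of all genes in this direction. The difference in log2(CPM + 1) was -1.51 ± 0.20 (SE, 95% interval -1.98 to -1.03) in static cultures, with an unadjusted p of 2.3e-04 and an adjusted p of 0.075 in limma, and -1.28 ± 0.20 in stretched cultures, with an adjusted p of 0.15. Without CAV1-/- animal 1, whose leukocyte markers were high, the differences were -1.45 and -1.56, so they were about as large without it. The summed mesothelial markers were also lower in all 4 CAV1-/- cultures, at 854 to 1116 against 2963 to 3903 normalised CPM in WT. Their part in the Igfbp6 difference was not tested. On stretch both WT animals were lower, by -0.39 ± 0.20 with an adjusted p of 1.00, while the CAV1-/- animals went in opposite directions.

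Igf1, the ligand, lay the other way. Its gene (ENSMUSG00000020053, plus strand of chromosome 10, 87858265 to 87937042) measured 11.3 and 14.4 normalised CPM in static WT and 28.2 and 25.4 in static CAV1-/- cultures. In stretched cultures it measured 21.4 and 9.30 in WT and 28.4 and 40.7 in CAV1-/- MCs. All 4 CAV1-/- cultures were above all 4 WT cultures, as for 3.86% of all genes. The difference in log2(CPM + 1) was 1.01 ± 0.38 (SE, 95% interval 0.08 to 1.95) in static and 1.2 ± 0.38 (0.27 to 2.14) in stretched cultures, and the limma p adjusted over all genes was 0.56 and 0.60. Macrophages also make Igf1, and CAV1-/- animal 1 had the high leukocyte markers. CAV1-/- animal 2, with a summed leukocyte level of 317 and 348 normalised CPM, measured 25.4 and 40.7 for Igf1, and WT animal 1, with 448 and 468, measured 11.3 and 21.4. With CAV1-/- animal 1 left out the differences were 0.94 and 1.46. The part of leukocytes in the Igf1 levels was not tested. On stretch Igf1 had no common direction, since it was higher in WT animal 1 and CAV1-/- animal 2, lower in WT animal 2 and nearly level in CAV1-/- animal 1.

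**Figure D3:**
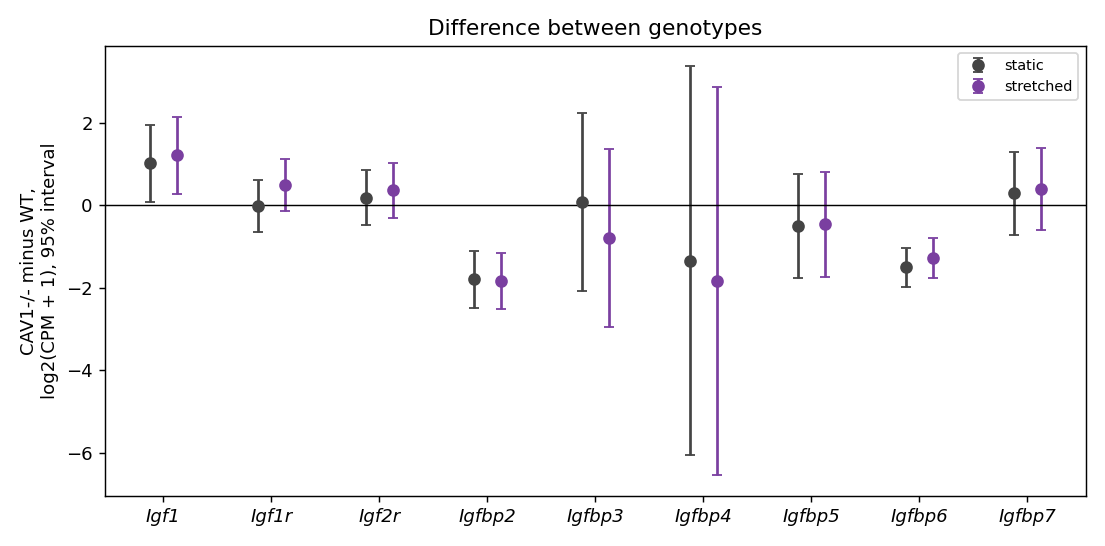
Difference between CAV1-/- and WT MCs for each gene in log2(CPM + 1) from limma (points) with its 95% interval (bars), in static (grey) and stretched (purple) cultures. The intervals of Igfbp2, Igfbp6 and Igf1 leave out 0 in both conditions, before any adjustment over genes, and the interval of Igfbp4 spans -6.05 to 3.36 in static cultures.

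No gene of the 9 passed the adjusted threshold in any of the 6 comparisons in limma's fit without a block. The share of all genes that passed was 0% in the stretch comparisons and the interaction, 0.0732% between genotypes in static and 0.0585% in stretched cultures. At an unadjusted p of at most 0.05, 1 of the 9 was lower on stretch in WT (background 1.45%), 1 in CAV1-/- MCs (1.02%) and 1 over both genotypes (2.55%), in each case Igfbp2, and none was higher (background 0.82%, 1.08% and 2.19%). Between genotypes Igfbp2 and Igfbp6 were lower (background 5.42% in static and 3.82% in stretched cultures) and Igf1 higher (2.76% and 2.44%) at that p. None of the 9 had an interaction p of at most 0.05, where 0.351% of all genes had one above 0 and 0.132% one below 0. On the recovered reads, edgeR without the block called 0 of the 9 (background 0% for stretch and the interaction, 0.0146% between static and 0.0439% between stretched genotypes). DESeq2 called Igfbp2 on stretch in WT (background 0.022%), in CAV1-/- MCs (0.0512%) and over both genotypes (0.249%), and it called Igfbp2 and Igfbp6 between static (2.26%) and stretched genotypes (1.73%).

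Igfbp3 and Igfbp4, the other high-level binding proteins, were lower on stretch in every animal, but with a wide spread between animals. Igfbp3 (ENSMUSG00000020427, minus strand of chromosome 11, 7206086 to 7213923) encodes the main carrier of IGFs in serum. It went from 474.5 to 468.1 and from 774.0 to 318.9 normalised CPM in the WT animals, and from 334.5 to 99.9 and from 1223 to 486.9 in the CAV1-/- animals. WT animal 1 was thus nearly level, and in WT animal 2 and CAV1-/- animals 1 and 2 the level was divided by 2.43, 3.35 and 2.51. The difference in log2(CPM + 1) was -0.65 ± 0.89 (SE) in WT, -1.53 ± 0.89 in CAV1-/- MCs and -1.09 ± 0.63 over both. The limma adjusted p was 0.99 for the last. With the animal as a block in limma its SE was 0.19, its unadjusted p 0.0011 and its adjusted p 0.059, so it did not pass. The interaction was -0.88 (95% interval -3.93 to 2.17, adjusted p = 1.00). Genotype groups overlapped in both conditions. The genotype difference was 0.08 (95% interval -2.08 to 2.23) in static and -0.80 (-2.96 to 1.35) in stretched cultures. Without CAV1-/- animal 1 it was 1.01 and 0.33, the latter with the other sign.

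Igfbp4 (ENSMUSG00000017493, plus strand of chromosome 11, 99041244 to 99054392) encodes an inhibitor of IGF action that PAPPA cleaves. It measured 667.9 and 562.3 normalised CPM in static and 457.5 and 433.4 in stretched WT cultures. CAV1-/- animal 1 measured 57.2 static and 18.5 stretched, whereas CAV1-/- animal 2 measured 1002 and 800.9, above every WT culture. The level thus differed 17.5 times between the 2 CAV1-/- animals when static and 43.2 times when stretched, against 1.19 and 1.06 times between the WT animals. On the ratio of CPM + 1, only 0.176% of all genes differed more between the static and 0.0585% between the stretched CAV1-/- cultures. The genotype difference of -1.35 ± 1.93 (SE) in static and -1.83 ± 1.93 in stretched cultures on the log2(CPM + 1) scale rested on that animal. Without it the differences were 0.71 and 0.85, with the other sign. On stretch the difference was -0.46 ± 1.93 in WT, -0.95 ± 1.93 in CAV1-/- MCs and -0.70 ± 1.37 over both genotypes (limma, adjusted p = 1.00), and -0.32 in CAV1-/- MCs without animal 1. With the animal as a block in limma, the SE over both genotypes was 0.18, the unadjusted p 0.0079 and the adjusted p 0.11. Pdgfra, a fibroblast receptor gene, was also low in that animal, with 55.4 and 19.3 normalised CPM in CAV1-/- animal 1, 706 and 489.7 in CAV1-/- animal 2 and 154.4 to 603 in WT. Dcn was low there too, with 142 and 42.6 normalised CPM against at least 203.4 in the other 6 cultures. Of 10 measured fibroblast markers, 5 were lower in that animal than in the other 6 cultures. Thy1 was not among them, at 67.5 and 61.5 in CAV1-/- animal 1 and at 64.5 and 38.9 in WT animal 1, where Igfbp4 was high. The part of fibroblasts and leukocytes in the Igfbp4 levels was not tested.

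**Figure D4:**
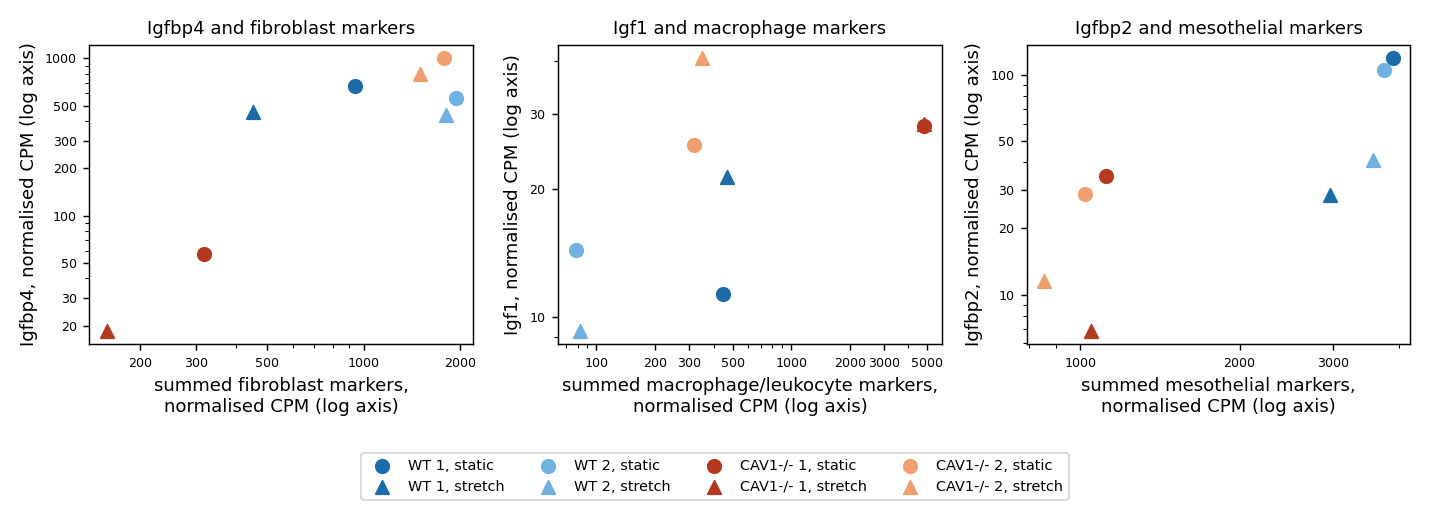
Igfbp4 against 10 summed fibroblast markers, Igf1 against 14 summed macrophage and leukocyte markers, and Igfbp2 against 12 summed mesothelial markers, all in normalised CPM on log axes, for 8 cultures (circles static, triangles stretched). CAV1-/- animal 1 lies at the low end for Igfbp4 and at the far right for leukocyte markers, and CAV1-/- animal 2 lies at Igf1 levels of 25.4 and 40.7 with summed leukocyte markers of 317 and 348.

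Igf2r was the remaining gene with 1 direction on stretch in all 4 animals, and it was higher. It (ENSMUSG00000023830, minus strand of chromosome 17, 12682406 to 12769664) went from 325.6 to 328.0 and from 223.2 to 285.6 normalised CPM in WT animals, and from 352.6 to 472.3 and from 264.7 to 326.8 in CAV1-/- animals. The difference was 0.27 ± 0.19 (SE, 95% interval -0.20 to 0.74) over both genotypes in log2(CPM + 1), with a limma adjusted p of 0.99, and all neighbouring groups overlapped in level. With the animal as a block in limma the SE was 0.07 and the adjusted p 0.12. In all, 3 of the 9 genes were lower in 4 of 4 animals, where 16.9% of all genes were, and 1 was higher, where 14.5% of all genes were. With 4 pairs an exact sign permutation test cannot go below a two-sided p of 0.125.

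**Figure D5:**
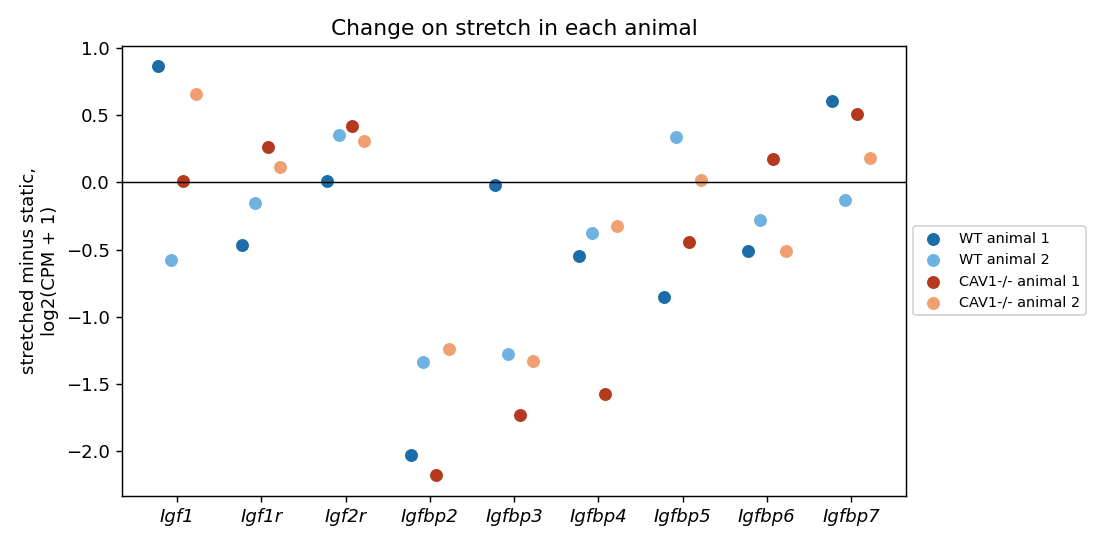
Stretched minus static level of each gene in log2(CPM + 1), with 1 point per animal (2 WT in blue, 2 CAV1-/- in red). The points of Igfbp2 lie between -2.18 and -1.24, and those of Igf1r lie below 0 in both WT animals and above 0 in both CAV1-/- animals.

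Igf1r, the signalling receptor, had the smallest ratio of highest to lowest culture of the 9. It (ENSMUSG00000005533, plus strand of chromosome 7, 67952827 to 68233668) measured 72.6 and 72.0 normalised CPM in static WT cultures, 52.2 and 64.7 in stretched WT cultures, 84.6 and 60.6 in static CAV1-/- cultures and 101.8 and 65.5 in stretched CAV1-/- cultures. Stretched WT cultures were below both static WT cultures, by -0.31 ± 0.26 (SE) in log2(CPM + 1), and the stretched CAV1-/- cultures were above the stretched WT cultures by 0.48 ± 0.26, with limma adjusted p of 1.00 and 0.91. CAV1-/- animal 1 gave the highest values in its genotype, and without it the latter difference was 0.17. On stretch each CAV1-/- animal was higher, with a difference of 0.19 ± 0.26 and an adjusted p of 1.00.

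Igfbp5 and Igfbp7 had no common direction on stretch across animals, and their genotype groups overlapped. Igfbp5 (ENSMUSG00000026185, minus strand of chromosome 1, 72857932 to 72874884), a binding protein that attaches to extracellular matrix, was between 9.51 and 38.1 normalised CPM, and every pair of neighbouring groups overlapped. Its highest value was static WT animal 1, with 14.2 in the other static WT culture. Igfbp7 (ENSMUSG00000036256, minus strand of chromosome 5, 77349240 to 77408041) was between 388.5 and 952.2 normalised CPM, with 523.7 and 425.7 in static WT, 795.9 and 388.5 in stretched WT, 668.1 and 496.1 in static CAV1-/- and 952.2 and 563.0 in stretched CAV1-/- cultures. In each group the first animal was higher, and all neighbouring groups overlapped. The genotype difference in static cultures was 0.29 ± 0.41 (SE) in log2(CPM + 1), with a limma adjusted p of 0.93, and 0.07 without CAV1-/- animal 1. In the annotation 7.03% of the Igfbp7 exon bases overlap exons of the antisense gene Polr2b, and the counting is not stated to use strand. The other 8 genes share no exon base with another gene.

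Over the 8 cultures, the strongest Pearson r between pairs of the 9 genes in log2(CPM + 1) were -0.91 for Igf1 and Igfbp6, 0.85 for Igfbp3 and Igfbp4, -0.85 for Igf2r and Igfbp3, 0.84 for Igf2r and Igfbp7, -0.83 for Igf1r and Igfbp4 and 0.80 for Igfbp2 and Igfbp6. These are descriptions over 8 libraries that share animals. Both cultures of CAV1-/- animal 1 lie at the low end for Igfbp4, and its stretched culture lies at the low end for Igfbp3. Among 10797 genes with a mean of at least 5 normalised CPM, those most like Igfbp2 were Gpr146, an orphan receptor gene, with an r of 0.99, Haghl with 0.98 and Eml2 with 0.97. Eml2 measured 79.5 and 65.7 normalised CPM in static WT, 45.7 and 49.6 in stretched WT, 35.4 and 37.4 in static CAV1-/- and 22.4 and 26.3 in stretched CAV1-/- cultures, with no overlap between the groups. Those most like Igfbp6 were Kank1 (r of 0.99), Arhgap44 (0.98) and Lsr (0.98), a tight junction gene, which measured 16.0 to 41.7 normalised CPM in WT and 0.27 to 2.06 in CAV1-/- cultures. Those most like Igf1 were Il1a, an inflammatory cytokine gene (0.94), March7 (0.94) and Gorasp2 (0.94), and Il1a measured 0.43 to 4.88 normalised CPM in WT and 24.6 to 70.9 in CAV1-/- cultures. Those most like Igfbp4 were Zfp810 (1.00), Col6a1, a collagen chain gene (0.99), and Hirip3 (0.99). The remaining sets were Gm13086, Zfp1 and Ska1 for Igfbp3, Matn2, Lyrm4 and Adck1 for Igfbp5, Trp53inp2, Rfwd2 and Map2k1 for Igfbp7, Dmxl2 and Zzef1 for Igf1r, and Ralgapb, Kif5b and Hyou1 for Igf2r, with r between 0.92 and 0.99.

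Of 55 other genes of the IGF axis (ligands, insulin receptors, proteases of the binding proteins, adaptors, the PI3K and AKT branch and RNA-binding proteins), 45 were tested and none passed the adjusted threshold of limma in any comparison. At an unadjusted p of at most 0.05, 0 were higher and 3 lower on stretch in WT, where 0.82% and 1.45% of all genes were. The counts were 1 higher and 1 lower in CAV1-/- MCs (1.08% and 1.02%), 3 higher and 3 lower over both genotypes (2.19% and 2.55%), 1 higher and 5 lower between static genotypes (2.76% and 5.42%), and 1 higher and 2 lower between stretched genotypes (2.44% and 3.82%). The median difference of the 45 was -0.13 on stretch in WT and 0.02 in CAV1-/- MCs in log2(CPM + 1), where the median over all genes was -0.02 and -1.9e-05. The interaction was above 0 for 36 of the 45, where 52.6% of all genes were above 0, with 0 called.

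Among ligands and receptors, Igf2, the other IGF, was at 0.49 to 3.60 normalised CPM, close to the low end of what was measured. Insr, the insulin receptor, was at 35.9 to 46.3 in WT and 40.7 to 53.4 in CAV1-/- cultures. Of the genes that act on the binding proteins, Pappa, the protease of IGFBP4, was at 22.1 to 45.6 in all cultures. Pappa2, a protease of IGFBP3 and IGFBP5, measured 3.22 and 2.02 in static WT cultures and 0.38 to 0.91 in the other 6. The latter values rested on 4 to 17 reads, close to the floor of 3 reads. Its difference on stretch in WT was -1.0 ± 0.29 (SE) in log2(CPM + 1), with an adjusted p of 1.00 in limma, and between static genotypes it was -1.12 ± 0.29 with an adjusted p of 0.32.

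Stc1 and Stc2 encode stanniocalcins, and STC2 is an inhibitor of PAPPA. Stc1 measured 0.28 to 3.21 normalised CPM in WT and 6.76 to 11.7 in CAV1-/- cultures, a difference of 2.67 ± 0.54 (SE) in log2(CPM + 1) in static and 2.16 ± 0.54 in stretched cultures, with limma adjusted p of 0.18 and 0.40. DESeq2 gave adjusted p of 0.0019 and 0.23, and edgeR 0.32 and 0.70. The WT levels of Stc1 rested on 4 and 7 reads in static and 65 and 6 reads in stretched cultures. All but the 65 lay close to the floor of 3 reads. In edgeR the log2 differences were 4.25 and 2.45, so their size depended on the method. Stc2 measured 6.96 to 14.4 in WT and 12.9 to 22.5 in CAV1-/- cultures. Tmem219, named as a receptor of IGFBP3, was lower on stretch by -0.37 ± 0.13 over both genotypes, with 12.6 in both static cultures against 7.62 and 9.80 normalised CPM stretched in CAV1-/- MCs.

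Downstream of the receptor, the adaptor genes Irs1 and Irs2 were lower in CAV1-/- than in WT static cultures. Irs1 measured 24.3 and 28.7 normalised CPM against 15.2 and 13.3, and Irs2 measured 31.1 and 37.8 against 14.8 and 17.8. In stretched WT cultures they were 10.7 and 20.9 for Irs1 and 12.0 and 29.1 for Irs2, below both static WT cultures. The static genotype difference in log2(CPM + 1) was -0.85 ± 0.32 (SE) for Irs1 and -1.04 ± 0.39 for Irs2, with limma adjusted p of 0.55 and 0.56. Foxo1, a transcription factor that AKT holds out of the nucleus, measured 22.2 and 24.6 in static WT and 11.6 and 12.5 in static CAV1-/- cultures, a difference of -0.90 ± 0.14 with a limma adjusted p of 0.10, 0.14 in edgeR and 0.0017 in DESeq2. In stretched cultures the Foxo1 difference was -0.50 ± 0.14 with an adjusted p of 0.48. On stretch over both genotypes, Pik3ca, a catalytic subunit of PI3K, was higher by 0.28 ± 0.07 and Rheb, an activator of mTOR, by 0.35 ± 0.13, each with an adjusted p of 0.98. Mtor itself was lower on stretch in WT by -0.42 ± 0.12 with an adjusted p of 1.00. With the animal as a block, 2 of the 45 passed on stretch over both genotypes, Htra1, a protease of binding proteins (-0.38), and Grb10, an adaptor that inhibits the receptor (-0.49), each with an adjusted p of 0.046, where 1.47% of all genes passed. Neither passed in edgeR with the same block (adjusted p of 0.060 and 0.057), with the animal as a random effect (0.70 and 0.13) or in DESeq2 (1.00 and 1.00). Grb10 was named after its values were seen, and it went from 1121 to 692.9 and from 1029 to 809.6 normalised CPM in WT animals and from 532.5 to 370.3 and from 971.2 to 737.2 in CAV1-/- animals.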

How the data were processed

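RNAseq of MCs from 2 WT and 2 CAV1-/- mice (8 libraries) was used, which is the number in the labels, while the paper gives a larger n. The authors trimmed reads with Cutadapt, quantified them with RSEM on the GRCm38 transcriptome, and normalised them by the TMM method. The deposited signal is TMM-normalised CPM per gene. Its steps gave back whole reads for every value within 0.01. Of 13687 genes, 22 were filtered out and 13665 fitted by limma (version 3.58.1, R version 4.3.3) on log2(CPM + 1), with 1 mean per group, 4 residual degrees of freedom, an intensity trend and Benjamini-Hochberg adjustment; "called" means an adjusted p under 0.05. An exact test of 2 against 2 cultures cannot go below p = 0.333. edgeR (version 4.0.16) and DESeq2 (version 1.42.0) were run on the recovered reads. As a check of the code, changed genes were recovered in simulated independent counts. These held changes between genotypes only and no animal effect, so the check does not bear on the stretch results. Floors of 3 reads cover counting error only. The p-values without a block take the 8 cultures as independent, although they come from 4 animals. Those with the animal as a block measure the spread of the stretch response between animals. Neither reaches beyond these 4 animals.

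Static and stretched cultures of an animal deviated together (r = 0.70 in WT and 0.85 in CAV1-/- MCs), as the animal numbers in the labels imply. Cultures of the same replicate number and other genotype did so less strongly (r = 0.52 static and 0.48 stretched), and the cause was not tested. Gene positions are from GENCODE M21. The genes named are the 9 members, Cav1, fixed IGF-axis genes, up to 3 axis genes per direction and comparison with p of at most 0.05 and no overlap, 3 like genes per member, and markers. Of these, 2 are not reported here. The members and lists were chosen with earlier results of these data known.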

Additional observations from a re-analysis of the deposited data

Results flagged for a closer look

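The stretch response of Igf1r was singled out because it had opposite signs in the genotypes: the level was lower on stretch in 2 of 2 WT animals (72.6 to 52.2 and 72.0 to 64.7 normalised CPM) and higher in 2 of 2 CAV1-/- animals (84.6 to 101.8 and 60.6 to 65.5). The test of the difference, the interaction in limma, gave 0.50 ± 0.37 (SE, 95% interval -0.39 to 1.39) in log2(CPM + 1), with an unadjusted p of 0.22 and an adjusted p of 1.00, and with the animal as a block an unadjusted p of 0.016 and an adjusted p of 0.95. Of all 13665 genes, 4.87% had these signs and 4.11% the opposite ones. Groups of 2 cultures were too small to search for single outlying values.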

How the results depend on the processing

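In the count of the 9 genes called, limma gave 0 in all 6 comparisons, and so did the fits with a culture or an animal left out, in which a lone culture is assumed to vary like the other groups. With the replicate block, 1 was called on stretch over both genotypes (Igfbp2) and 2 between static genotypes (Igfbp2 and Igfbp6). That block is the animal for stretch, but for genotypes it pairs different animals that have the same replicate number. Cultures paired in this way also deviated together (r = 0.52 static and 0.48 stretched), and the cause was not tested. The block changed no other call of the 9. Of the 45 other IGF-axis genes it added Foxo1 between static genotypes and Htra1 and Grb10 on stretch over both. With the animal as a random effect 0 of the 9 were called. With edgeR and the replicate block, a setting added after the data were seen, 1 was called on stretch over both genotypes. DESeq2 called 1 in each stretch comparison and 2 in each genotype comparison. At an unadjusted p of at most 0.05 there was 1 in each stretch comparison and 3 in each genotype comparison. Over all genes, in the order stretch in WT, in CAV1-/- MCs, over both, static genotypes, stretched genotypes and interaction, limma called 0, 0, 0, 10, 8 and 0, the block 0, 1, 201, 246, 110 and 0, edgeR 0, 0, 0, 2, 6 and 0, and DESeq2 3, 7, 34, 309, 237 and 0.

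Of 685 alternative values of 26 reported log2 differences, 645 kept direction and side of the threshold, 20 now passed it and 20 had the other direction. The genotype differences of Igfbp3 and the stretch differences of Igfbp5 and Igfbp7 are not among these 26. The Igfbp2 interaction was 0.19 with a pseudocount of 5 and 0.027 with quantile normalization. Leaving out cultures or animals, it ran from -0.50 to 0.44, the Igfbp3 interaction from -2.02 to 0.25, and the Igf1r stretch difference in CAV1-/- MCs from -0.13 to 0.50. Igfbp4 ran from -3.63 to 1.73 on stretch in CAV1-/- MCs, from -2.04 to 0.64 over both genotypes, from -3.40 to 0.71 between static and from -4.51 to 0.85 between stretched genotypes. Its sign turned on stretch without the static culture of CAV1-/- animal 2 (1.10 in CAV1-/- MCs, 0.32 over both) or the stretched one of animal 1 (1.73 and 0.64), which leaves cultures of different animals to be compared, and between genotypes without animal 1. The cause of other reversals was not tested.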

Other observations

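Igfbp2 was lower on stretch by at least 1 on the log2(CPM + 1) scale in each of 4 animals. At this limit, chosen after the values were seen, 6 of 13665 genes were (0.0439%), the others being Bmp4, Cemip, Gm10254, Nell2 and Scel. Htra1, a secreted protease of binding proteins, was higher in the first than in the second animal of each genotype in all 4 groups, with 508 and 67.0 normalised CPM in static WT, 333.9 and 47.6 in stretched WT, 401 and 46.2 in static CAV1-/- and 363.6 and 37.5 in stretched CAV1-/- cultures.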
